A study of Mus musculus with 6 samples.

Results

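The Wnt ligands, their receptors and co-receptors, the proteins that carry their signal to the nucleus and their feedback targets made up 35 of the 25189 genes with a row in the count table. The rule for the members used gene symbols, although it was drawn up with earlier results of these data known: every Wnt ligand, Frizzled receptor, secreted Frizzled-related protein, Dickkopf and Dishevelled with a row, plus a short list of named co-receptors, cytoplasmic proteins, transcription factors and feedback targets. They comprised 8 Wnt ligands, 9 Frizzled receptors, the 2 co-receptors Lrp5 and Lrp6, 3 Dishevelled proteins, 2 secreted inhibitors, β-catenin (Ctnnb1) with 3 proteins of the complex that degrades it, 4 TCF/LEF transcription factors and 3 feedback targets.

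The 6 RNA-seq libraries, labelled as kidney tissue, were 3 from I/R with chemerin-9 and 3 from I/R. All came from male wild-type C57BL/6 mice on day 2. I/R is ischaemia followed by reperfusion, an injury caused by interrupting and restoring the kidney's blood supply. Chemerin-9 is a short peptide derived from chemerin that activates its receptor, and no dose or route is given in the labels. By the labels, no uninjured kidney entered the comparison. On that reading, every difference below is between injured tissue with the peptide and injured tissue without it. Every statement on chemerin-9 rests on reading the table's columns named IC as I/R with chemerin-9, which the labels do not state for that table.

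Depth was 11217252 to 14004529 counts a library in I/R with chemerin-9 and 13069464 to 16938301 in I/R. I/R replicate 3 stood apart from its group: a chi-square of its counts over genes, per degree of freedom, was 5.61 and 6.16 against the other I/R libraries, which gave 1.82 between themselves, while pairs across groups gave 27.7 to 39.9. The labels give each library a batch date of its own, with which batch and treatment cannot be told apart; the dates run in sequence, as do the treatment names C9, C10 and C11, and may not be true batches. Whether every library is a separate mouse is not in the labels, so the p-values rest on a spread between libraries that could be technical. Defining markers of kidney cells went against the tissue label. The 5 proximal tubule markers with a row summed to 21.2 to 27.1 CPM (counts scaled to a common library size) in I/R with chemerin-9 and 24.1 to 25.0 CPM in I/R, and the 2 loop of Henle markers, the 2 collecting duct markers and the 3 endothelial markers to less than 2 CPM in every library. No distal tubule marker had a row. The 7 markers of matrix-producing cells summed to 2134 to 2215 CPM in I/R with chemerin-9 and 2687 to 2813 CPM in I/R, and 4 cell division genes to 3074 to 3176 CPM and 3174 to 3326 CPM in those groups. The 3 podocyte markers with a row summed to 26.4 to 28.5 CPM in I/R with chemerin-9 and 17.1 to 18.2 CPM in I/R. The 5 tubular injury markers with a row summed to 136 to 141 CPM in I/R with chemerin-9 and 134 to 146 CPM in I/R. Of these Vcam1 rose (log2 fold change 0.81, adjusted p = 1.3e-07, edgeR). Spp1 and Sox9 fell (-0.26 and -0.48, adjusted p = 5.1e-04 and 0.044, edgeR). Lcn2 did not pass, and Krt8 averaged 0.38 CPM in both groups. The matrix list did not move as a whole. Vim, with 853 CPM in I/R with chemerin-9 and 1366 CPM in I/R, made most of its lower sum, Acta2 and Col1a2 also fell, Col3a1 and Pdgfrb rose (log2 fold changes 0.45 and 0.49, adjusted p = 0.0023 and 2.9e-05, edgeR), and Col1a1 and Pdgfra did not pass. The part of these genes and of the podocyte and tubular injury markers in the results below was not tested.

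Wnt proteins are lipid-modified secreted ligands that bind a Frizzled receptor together with Lrp5 or Lrp6. Without ligand, a complex built on Axin and Apc lets Gsk3b phosphorylate β-catenin, which is then degraded. When ligand binds, Dishevelled helps to recruit Axin to the receptor, β-catenin accumulates, and it acts with TCF/LEF factors on genes such as Axin2, Rnf43 and Znrf3, whose products dampen the pathway in turn. In the developing kidney Wnt4 and Wnt9b drive the conversion of mesenchyme to epithelium and Wnt11 acts at the ureteric bud tips, and the pathway is known to become active again after tubular injury. These measurements are of mRNA, whereas β-catenin is controlled mainly through its protein.

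Of the 35 members, 31 passed the filter on low counts and were tested with edgeR, and 22 of these, or 71.0%, had an adjusted p under 0.05. Across all 14184 genes tested, 51.7% passed the same threshold, so a called member is no rare event in this comparison. In I/R with chemerin-9, 14 members rose, or 45.2% of those tested beside 25.6% of all genes, and 8 fell, or 25.8% beside 26.1% of all genes. The median log2 fold change was 0.09 over the tested members and -0.0037 over all tested genes, and the median size of the change, without its sign, was 0.36 and 0.27. Members and all tested genes were of similar abundance, with medians of 24.3 and 26.1 CPM. The 3 libraries of one group lay entirely above or below the 3 of the other for 24 of the 31 members, or 77.4%, and for 58.5% of all tested genes. Wnt2b, Fzd3, Fzd6, Wnt10a, Wnt4 and Tcf7 had the highest log2 fold changes, and Wnt9a, Fzd5 and Lrp5 the lowest among the members that passed. Without I/R replicate 3, the library that stood apart, 14 members rose and 7 fell, and the call lost was that of Wnt10b. In RNA pooled from many cells, fewer cells of a type and less RNA per cell cannot be told apart.

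**Figure D1:**
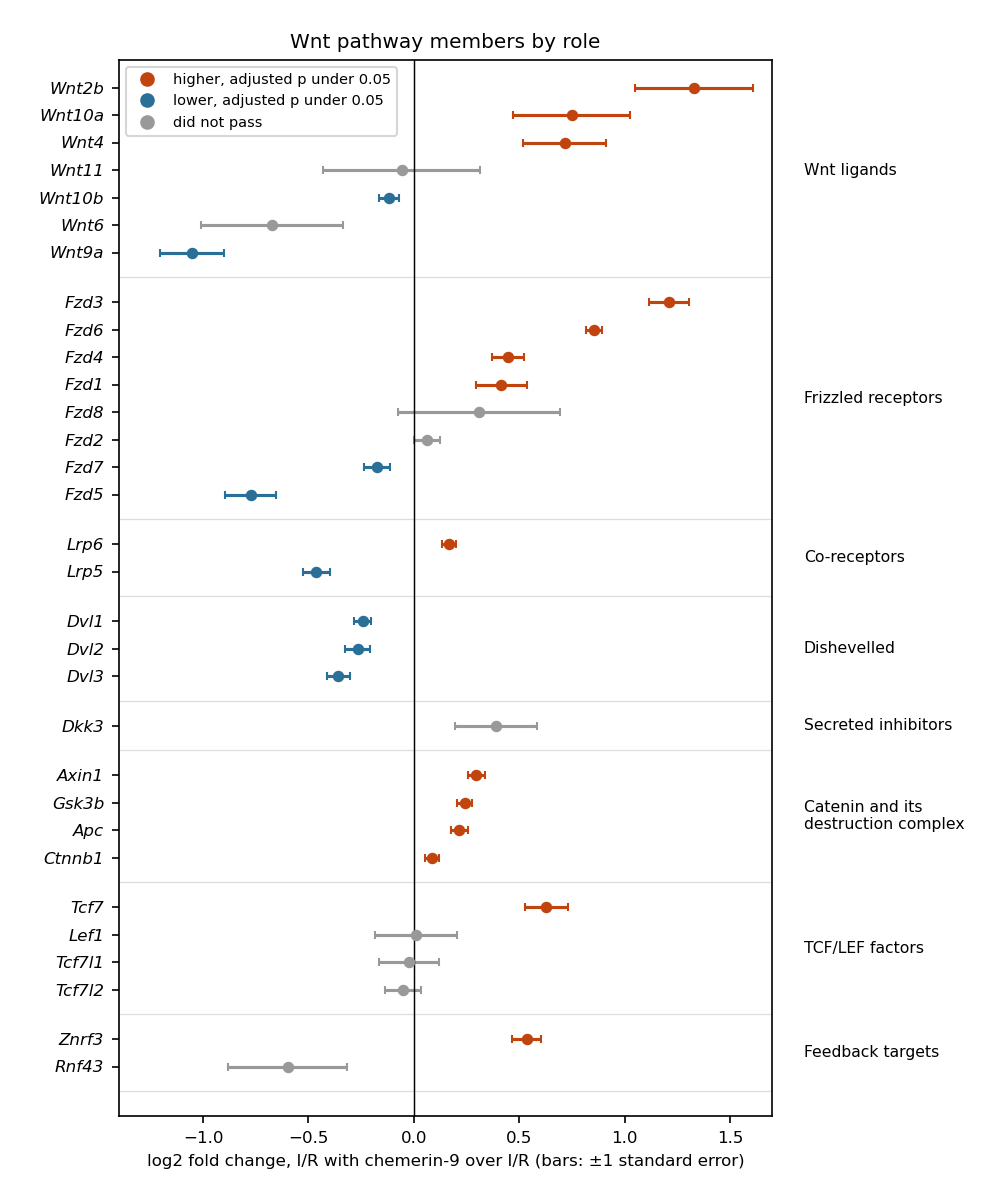
Log2 fold change of each tested Wnt pathway gene, I/R with chemerin-9 over I/R (x axis), grouped by role, with bars of 1 standard error from edgeR; grey points did not reach an adjusted p under 0.05. The 3 Dishevelled genes lie left of 0 and β-catenin with the 3 proteins of its degradation complex lies right of 0, while ligands and receptors lie on both sides, from -1.05 for Wnt9a to 1.33 for Wnt2b.

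Among the ligands, 3 of the 7 tested rose in I/R with chemerin-9 and 2 fell, together 71.4%, beside 51.7% of all tested genes. Wnt2b, a ligand of the β-catenin pathway, had 3.14, 2.51 and 2.59 CPM in I/R with chemerin-9, against 1.10, 1.26 and 0.910 CPM in I/R. The lowest chemerin-9 library was far above the highest I/R library, and the log2 fold change was 1.33 with a standard error of 0.28 (adjusted p = 0.0010, edgeR). Wnt4, which drives nephron formation in the embryo, had 6.97, 7.07 and 5.32 CPM in I/R with chemerin-9, against 2.82, 4.46 and 4.37 CPM in I/R. The groups did not overlap, and Wnt4 rose by 0.72 on the log2 scale with a standard error of 0.20 (adjusted p = 0.0072, edgeR). Wnt10a, which is best known from tooth and skin, had 2.79, 2.65 and 2.45 CPM in I/R with chemerin-9, against 1.02, 1.78 and 1.82 CPM in I/R. All of the chemerin-9 libraries were above all of the I/R libraries, by a log2 fold change of 0.75 with a standard error of 0.28 (adjusted p = 0.035, edgeR). These 3 ligands were scarce, with 13 to 96 counts in a library, and the call for Wnt10a was lost without any 1 of the chemerin-9 replicates 1, 2 or 3 (adjusted p = 0.088, 0.081 and 0.062) or without I/R replicate 1 (adjusted p = 0.13), over a range of 0.013 to 0.13 for all alternatives tried.

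Wnt9a, a ligand known from joint and skeletal development, fell furthest of the members. It had 4.18, 5.67 and 4.34 CPM in I/R with chemerin-9, against 10.1, 9.36 and 10.1 CPM in I/R. The highest chemerin-9 library was well below the lowest I/R library, and the log2 fold change was -1.05 with a standard error of 0.15 (adjusted p = 3.5e-05, edgeR). Wnt10b, which is known to hold back fat cell formation and to favour bone formation, had 75.5, 73.7 and 72.3 CPM in I/R with chemerin-9, against 79.5, 78.3 and 82.2 CPM in I/R. The groups lay close together without overlapping, at a log2 fold change of -0.12 with a standard error of 0.05 (adjusted p = 0.047, edgeR). That call was lost without any 1 of the 6 libraries, at adjusted p values of 0.051 to 0.13, within a range of 0.042 to 0.13 over all alternatives. Wnt6 had 1.57, 1.62 and 1.47 CPM in I/R with chemerin-9, against 2.19, 1.41 and 3.70 CPM in I/R. One I/R library lay below the chemerin-9 libraries and I/R replicate 3 far above them, and the log2 fold change of -0.67 did not pass (adjusted p = 0.11, edgeR); it was -0.21 without I/R replicate 3 and passed without I/R replicate 2 (-0.95, adjusted p = 0.022), within a range of 0.022 to 0.66. Wnt6 and Wnt10a are neighbours on chromosome 1 of mm10, at 74771892 to 74785322 and 74791516 to 74804179 on the plus strand, with 6193 bases between them. Wnt11 overlapped between groups (log2 fold change -0.06, adjusted p = 0.91, edgeR), and Wnt5b stayed under the filter with 3 to 4 counts in each library of I/R with chemerin-9 and 0 to 4 in each of I/R.

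Levels of different genes were compared as CPM per kilobase of annotated exon. Of the 8 ligands with a row, Wnt10b was the most abundant on that scale in both groups. It had 21.7 ± 0.474 CPM per kb in I/R with chemerin-9 and 23.5 ± 0.579 in I/R (SD, n = 3 each). Ligands with no row, such as Wnt9b, could not be ranked, and their levels are not known here. Its share of the summed level of the 8 ligands was 79.2% ± 1.23 in I/R with chemerin-9 and 79.3% ± 1.80 in I/R. The summed ligand level was 27.4 ± 0.858 CPM per kb in I/R with chemerin-9 and 29.7 ± 1.39 in I/R. The scarcer ligands changed places beneath Wnt10b. Wnt9a took 5.18% ± 0.850 of the summed level in I/R with chemerin-9 and 9.97% ± 0.419 in I/R, Wnt4 took 5.60% ± 0.699 and 3.12% ± 0.717 in those groups, and Wnt2b took 2.38% ± 0.264 and 0.879% ± 0.178. The ratio of Wnt4 to Wnt9a per kb was 1.32, 0.990 and 0.973 in I/R with chemerin-9, against 0.222, 0.378 and 0.344 in I/R, so Wnt9a was well above Wnt4 in every I/R library, and Wnt4 was level with it or above it in the chemerin-9 libraries.

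**Figure D2:**
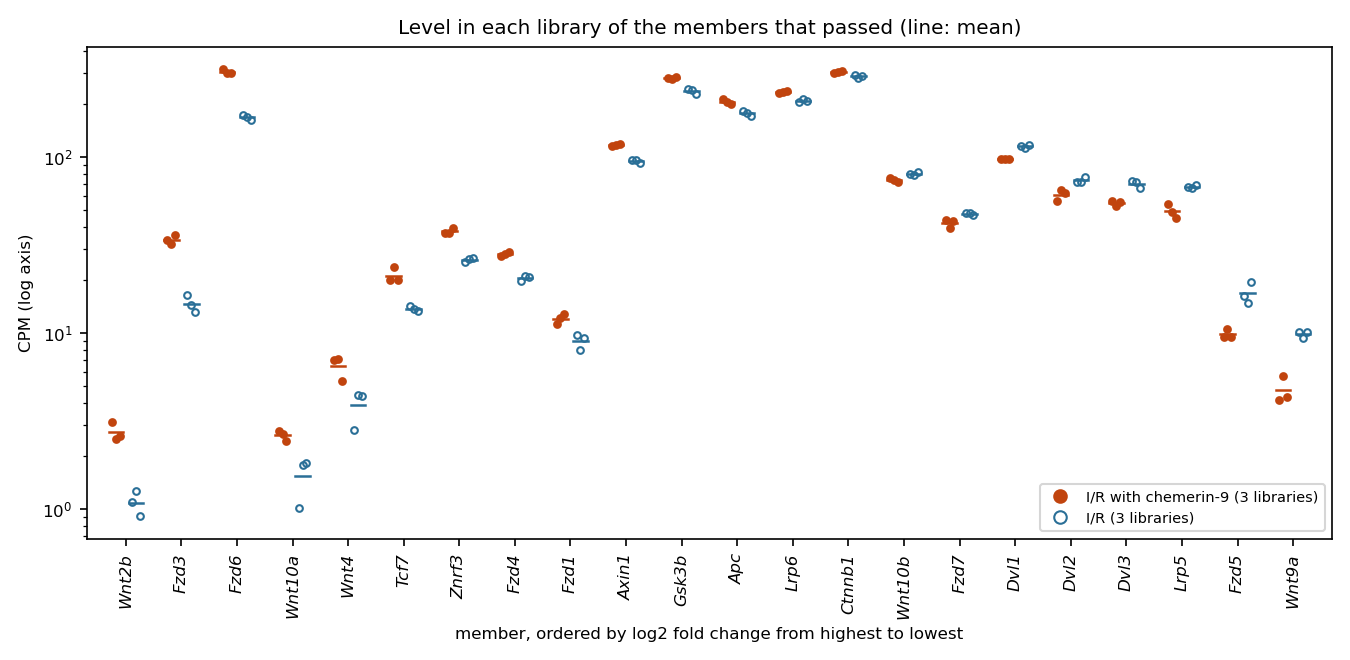
Abundance of each called member in the 6 libraries, in CPM on a log axis, with I/R with chemerin-9 to the left of I/R for each gene. Points are single libraries and bars are group means of 3; the 3 points of each group lie on separate sides for every gene shown.

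Of the 8 Frizzled receptors tested, 4 rose in I/R with chemerin-9 and 2 fell, together 75%, beside 51.7% of all tested genes. Fzd6, which is known mainly from planar cell polarity, had 313, 297 and 300.1 CPM in I/R with chemerin-9, against 173, 168 and 162 CPM in I/R. Replicates differed by little beside the gap between groups, and the log2 fold change was 0.85 with a standard error of 0.04 (adjusted p = 2.7e-10, edgeR), the smallest adjusted p of the members. Fzd3, likewise known from polarity and axon guidance, had 33.6, 31.8 and 35.8 CPM in I/R with chemerin-9, against 16.4, 14.4 and 13.1 CPM in I/R. The chemerin-9 libraries were all far above the I/R libraries, at a log2 fold change of 1.21 with a standard error of 0.09 (adjusted p = 7.1e-08, edgeR). Fzd4, the receptor for norrin as well as for Wnt proteins, had 27.4, 27.9 and 28.7 CPM in I/R with chemerin-9, against 19.7, 21.1 and 20.9 CPM in I/R. The groups were narrow and apart, at a log2 fold change of 0.45 with a standard error of 0.08 (adjusted p = 2.0e-04, edgeR). Fzd1, a receptor of the β-catenin pathway, had 11.2, 12.1 and 12.7 CPM in I/R with chemerin-9, against 9.71, 8.02 and 9.35 CPM in I/R. It too did not overlap between groups, at a log2 fold change of 0.42 with a standard error of 0.12 (adjusted p = 0.0093, edgeR).

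Fzd5, a receptor needed for development of the gut's Paneth cells and of the yolk sac, had 9.50, 10.5 and 9.51 CPM in I/R with chemerin-9, against 16.1, 14.8 and 19.5 CPM in I/R. All chemerin-9 libraries were lower, at a log2 fold change of -0.77 with a standard error of 0.12 (adjusted p = 9.0e-05, edgeR). Exons of Fzd5 share 1233 bases, 17.8% of their length, with Gm38058 on the opposite strand. Gm38058 has no row, and the strand setting of the counting is not given, so reads there cannot be told apart. Fzd7, a receptor known from stem cells, had 43.6, 39.4 and 43.3 CPM in I/R with chemerin-9, against 47.6, 48.1 and 46.7 CPM in I/R. Its fall was small, at a log2 fold change of -0.17 with a standard error of 0.06 (adjusted p = 0.027, edgeR), and was not called without chemerin-9 replicate 2 (adjusted p = 0.11), I/R replicate 1 (0.057) or I/R replicate 2 (0.066), within a range of 0.023 to 0.11. Fzd2 had 56.6, 60.5 and 55.7 CPM in I/R with chemerin-9, against 52.0, 53.9 and 59.2 CPM in I/R, and these overlapped (log2 fold change 0.06, adjusted p = 0.42, edgeR). Fzd8 did not pass either (log2 fold change 0.31, adjusted p = 0.53, edgeR), with 8 to 19 counts a library, and Fzd9 stayed under the filter with 0 to 2 counts.

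Per kb of exon the summed Frizzled level was 99.3 ± 1.51 CPM per kb in I/R with chemerin-9 and 69.3 ± 0.467 in I/R (SD, n = 3 each). Fzd6 made up 63.4% ± 0.819 of it in I/R with chemerin-9 and 50.3% ± 1.73 in I/R. Fzd2 and Fzd7 followed in both groups, Fzd2 at 15.7 ± 0.694 CPM per kb in I/R with chemerin-9 and 15.0 ± 1.02 in I/R, and Fzd7 at 9.28 ± 0.521 and 10.5 ± 0.165. Below them the order differed. The ratio of Fzd3 to Fzd5 per kb was 1.91, 1.63 and 2.03 in I/R with chemerin-9, against 0.551, 0.526 and 0.363 in I/R, so Fzd3 was above Fzd5 in each chemerin-9 library and below it in each I/R library.

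**Figure D3:**
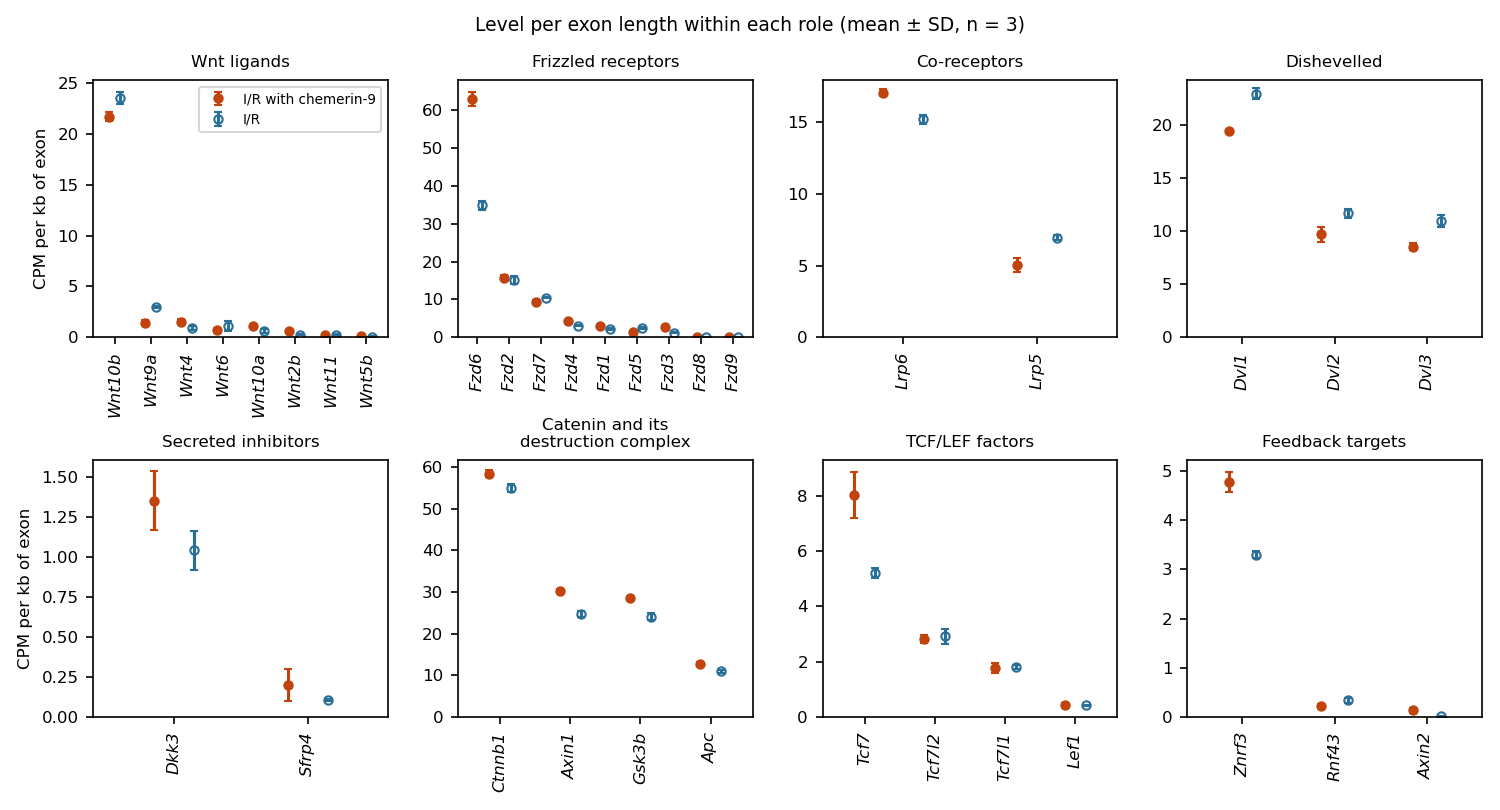
Level of every member per kilobase of exon, in CPM per kb on a linear axis for each role, for I/R with chemerin-9 and I/R (means of 3 libraries with SD). Wnt10b leads the ligands at 21.7 and 23.5 CPM per kb in I/R with chemerin-9 and I/R, and Fzd6 leads the Frizzled receptors at 62.9 and 34.8.

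The co-receptors moved in opposite directions. Lrp6 had 229.7, 234 and 237 CPM in I/R with chemerin-9, against 204, 213 and 207 CPM in I/R, a log2 fold change of 0.17 with a standard error of 0.04 (adjusted p = 0.0010, edgeR). Lrp5, which can stand in for Lrp6 and is known for its part in bone mass, had 54.2, 48.3 and 45.0 CPM in I/R with chemerin-9, against 67.6, 66.0 and 69.2 CPM in I/R. Neither gene overlapped between groups, and Lrp5 had a log2 fold change of -0.46 with a standard error of 0.06 (adjusted p = 2.7e-05, edgeR). The ratio of Lrp6 to Lrp5 per kb was 3.02, 3.44 and 3.74 in I/R with chemerin-9, against 2.15, 2.29 and 2.13 in I/R. Their summed level was 22.1 CPM per kb in both groups (SD 0.224 in I/R with chemerin-9 and 0.243 in I/R, n = 3 each). That equality depends on the lengths used, a union of exons of 13672 bases for Lrp6 and 9738 for Lrp5. Their longest transcripts have 9368 and 8893 bases. Whether one change offset the other was not tested. The rise of Lrp6 was not called once the trend with GC content and transcript length had been taken out (log2 fold change 0.04, adjusted p = 0.34, edgeR, within a range of 2.3e-04 to 0.34), whereas Lrp5 kept its value (-0.47).

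All 3 Dishevelled genes, whose products carry the signal from the receptor into the cell, fell in I/R with chemerin-9. Of all tested genes, 26.1% fell. Dvl1 had 96.6, 96.9 and 97.2 CPM in I/R with chemerin-9, against 115, 112 and 117 CPM in I/R, a log2 fold change of -0.24 with a standard error of 0.04 (adjusted p = 1.6e-04, edgeR). Dvl2 had 55.8, 64.7 and 62.4 CPM in I/R with chemerin-9, against 71.9, 72.0 and 76.5 CPM in I/R, a log2 fold change of -0.27 with a standard error of 0.06 (adjusted p = 0.0015, edgeR). Dvl3 had 56.1, 52.6 and 55.5 CPM in I/R with chemerin-9, against 73.1, 71.5 and 66.0 CPM in I/R, a log2 fold change of -0.36 with a standard error of 0.06 (adjusted p = 7.9e-05, edgeR). No library of one group reached the other for any of them. Dvl1 was the most abundant per kb, at 19.4 ± 0.0596 CPM per kb in I/R with chemerin-9 and 22.9 ± 0.515 in I/R, and the fall of Dvl1 was smaller after removal of the GC and length trend (log2 fold change -0.15, adjusted p = 0.0031, edgeR, within a range of 3.8e-06 to 0.0050). Exons of Dvl2 share 1151 bases with those of Acadvl on the opposite strand, 18.3% of its exon length. The strand setting of the counting is not given, so reads there cannot be told apart, and Acadvl itself had a log2 fold change of 0.03 (adjusted p = 0.74, edgeR).

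The mRNAs of β-catenin and of 3 proteins of its degradation complex were all higher in I/R with chemerin-9, by small amounts. Of all tested genes, 25.6% rose. Axin1, the scaffold, had 115, 116 and 118 CPM in I/R with chemerin-9, against 96.1, 96.1 and 91.5 CPM in I/R, a log2 fold change of 0.30 with a standard error of 0.04 (adjusted p = 3.3e-05, edgeR). Gsk3b, the kinase, had 279, 277 and 284 CPM in I/R with chemerin-9, against 242, 240.2 and 228 CPM in I/R, a log2 fold change of 0.24 with a standard error of 0.04 (adjusted p = 4.8e-05, edgeR). Apc, a large scaffold and tumour suppressor, had 212, 204 and 198 CPM in I/R with chemerin-9, against 181, 178 and 170.0 CPM in I/R, a log2 fold change of 0.22 with a standard error of 0.04 (adjusted p = 3.3e-04, edgeR). None of these overlapped between groups, and the spread within a group was smaller than the gap between groups. Ctnnb1, which encodes β-catenin, had 299, 303 and 308 CPM in I/R with chemerin-9, against 289.9, 280.0 and 286 CPM in I/R. The gap was narrow, at a log2 fold change of 0.09 with a standard error of 0.03 (adjusted p = 0.040, edgeR), and the call was lost without chemerin-9 replicate 1, 2 or 3 (adjusted p = 0.067, 0.089 and 0.15) and without I/R replicate 1 or 2 (0.060 and 0.15), within a range of 0.020 to 0.15. After removal of the GC and length trend, Apc was not called (log2 fold change 0.05, adjusted p = 0.19, edgeR, within a range of 3.9e-06 to 0.20) and Gsk3b was at 0.12 (adjusted p = 0.0019, within a range of 1.2e-08 to 0.0031), while Axin1 was at 0.38. Exons of Ctnnb1 share 759 bases, 14.6% of their length, with Ulk4 on the opposite strand, and Ulk4 itself rose by 0.54 on the log2 scale (adjusted p = 3.8e-04, edgeR). Per kb Ctnnb1 was the most abundant of the 4, at 58.4 ± 0.891 CPM per kb in I/R with chemerin-9 and 55.0 ± 0.967 in I/R.

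Among the transcription factors that β-catenin binds, Tcf7 alone passed the test. Tcf7, known best from T cells, had 19.9, 23.7 and 19.9 CPM in I/R with chemerin-9, against 14.2, 13.7 and 13.2 CPM in I/R. The lowest chemerin-9 library was well above the highest I/R library, at a log2 fold change of 0.63 with a standard error of 0.10 (adjusted p = 9.8e-05, edgeR). The 4 leukocyte markers with a row, Lyz2, Cd68, Cd79a and Ly6g, summed to 4.53 to 6.44 CPM in I/R with chemerin-9 and 4.61 to 6.09 CPM in I/R, but none of them marks T cells, and the part of T cells in the rise of Tcf7 was not tested. Tcf7l2, the factor most used in adult epithelia, had a log2 fold change of -0.05 (adjusted p = 0.65, edgeR), Tcf7l1, mostly a repressor, -0.02 (0.91), and Lef1, an activator, 0.01 (0.97), and all 3 overlapped between groups. Per kb of the union of exons Tcf7 was also the most abundant of the 4, at 8.05 ± 0.833 CPM per kb in I/R with chemerin-9 and 5.22 ± 0.179 in I/R. That order in I/R depends on the length used. The union of exons is 8775 bases for Tcf7l2 and its longest transcript 3715, against 2625 and 2471 for Tcf7. Before division by length, Tcf7l2 averaged 24.8 CPM in I/R with chemerin-9 and 25.7 CPM in I/R, above Tcf7 in both groups.

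Of the feedback targets, Znrf3 rose. Znrf3, a membrane ubiquitin ligase that removes Frizzled receptors from the cell surface, had 36.7, 36.9 and 39.5 CPM in I/R with chemerin-9, against 25.4, 26.2 and 26.5 CPM in I/R. Its groups were wide apart for their spread, at a log2 fold change of 0.53 with a standard error of 0.07 (adjusted p = 1.2e-05, edgeR). Rnf43, its close relative with the same role, had 1.83, 1.18 and 1.40 CPM in I/R with chemerin-9, against 2.19, 2.53 and 1.94 CPM in I/R. Here the chemerin-9 libraries were all the lower ones, but the log2 fold change of -0.60, with a standard error of 0.28, did not pass (adjusted p = 0.090, edgeR). Znrf3 was far the more abundant per kb, at 4.78 ± 0.199 CPM per kb in I/R with chemerin-9 and 3.30 ± 0.0760 in I/R, where Rnf43 had 0.224 ± 0.0505 and 0.339 ± 0.0447.

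Axin2, the most widely used readout of β-catenin activity, was close to the floor. In I/R with chemerin-9 the libraries held 12, 10 and 6 counts of it, against 1, 2 and 1 in I/R, 28 and 4 in sum. Every chemerin-9 library had more counts than every I/R library. The ratio of the summed counts, after library size, was 7.60, with an exact 95% interval of 2.66 to 29.8 that covers counting error only. Axin2 was removed by the filter on low counts and so is not among the 31 members tested. With no filter beyond 1 count in any library, its adjusted p was 0.0017 (edgeR), in a fit that called 31.5% of 24567 genes. Values from that fit are not on the scale of the other edgeR values given here. For Fzd6 the adjusted p was 5.0e-96 without the filter and 2.7e-10 with it, and for Ctnnb1 0.088 and 0.040 (edgeR). In the authors' deposited table it had a log2 fold change of 2.94 and an FDR of 0.017.

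The 250 bases before the RefSeq start of the target Axin2, of the receptor Fzd1 and of the kinase Gsk3b are printed here, Axin2 as the usual readout of the pathway, and Fzd1 and Gsk3b as the 2 members that rose and, among those with an entry, hold a TCF/LEF motif there. They come from the RefSeq promoter table of GRCm38.p6, in which 23 of the 35 members were found, and are read along the strand of the gene. The motif CTTTGA and its reverse complement TCAAAG, the core of a TCF/LEF site, are in capitals. Axin2 lies on the plus strand at chr11:108920099-108920348, Fzd1 on the minus strand at chr5:4758217-4758466 and Gsk3b on the plus strand at chr16:38088751-38089000.
Axin2: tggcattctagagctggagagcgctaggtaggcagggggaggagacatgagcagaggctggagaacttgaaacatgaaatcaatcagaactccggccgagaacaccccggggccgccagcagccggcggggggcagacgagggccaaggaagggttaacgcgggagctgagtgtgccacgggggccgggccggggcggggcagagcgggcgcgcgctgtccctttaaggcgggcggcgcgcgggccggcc
Fzd1: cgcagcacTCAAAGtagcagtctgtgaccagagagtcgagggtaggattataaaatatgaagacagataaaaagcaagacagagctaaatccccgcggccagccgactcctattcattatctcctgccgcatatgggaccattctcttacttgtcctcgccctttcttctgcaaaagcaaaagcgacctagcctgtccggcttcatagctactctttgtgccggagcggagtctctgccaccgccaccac
Gsk3b: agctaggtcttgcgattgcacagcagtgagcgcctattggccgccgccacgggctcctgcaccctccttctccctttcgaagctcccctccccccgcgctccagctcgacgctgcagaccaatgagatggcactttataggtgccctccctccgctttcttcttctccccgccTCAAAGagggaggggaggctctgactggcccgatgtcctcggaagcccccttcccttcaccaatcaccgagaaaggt
The motif began at base -242 from the RefSeq start in Fzd1, which lies upstream of the start of that gene in the count table, and at base -77 in Gsk3b. These letters did not occur in the 250 bases of Axin2, nor in the entries of Ctnnb1, Fzd4, Tcf7, Wnt2b and Wnt4, which also rose. It was present in 5 of the 33 promoter entries of the members, or 15.2%, and in 4544 of all 32851 entries of the same length, or 13.8%. A match is a description of the letters and not evidence of binding.

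The secreted inhibitors were few. Dkk3, a divergent member of the Dickkopf family, had 3.92, 5.16 and 4.55 CPM in I/R with chemerin-9, against 3.91, 3.49 and 3.09 CPM in I/R. The lowest chemerin-9 library and the highest I/R library nearly touched, and the log2 fold change of 0.39 did not pass (adjusted p = 0.11, edgeR). Sfrp4, a decoy that binds Wnt proteins outside the cell, was counted 7, 8 and 19 times in I/R with chemerin-9, against 6, 6 and 7 times in I/R, and stayed under the filter. Its summed counts were 1.94-fold higher, with an exact 95% interval of 1.08 to 3.61 for counting error only, and 1 chemerin-9 library held most of them. In the fit with no filter its adjusted p was 0.19 (edgeR).

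Called members differed in base composition as called genes did in general. The median GC content of the longest annotated transcript was 50.5% for members that rose and 55.0% for members that fell in I/R with chemerin-9, beside 46.9% and 51.1% for all genes that rose and fell. With the trend of counts on GC content and transcript length removed in each library, 13 members rose and 6 fell, 19 of the 31 tested, beside 52.5% of all genes called in that fit. Of these, 18 were called in the same direction as without the removal. Lrp6, Apc, Fzd7 (log2 fold change -0.14, adjusted p = 0.057, edgeR) and Wnt10b (-0.10, adjusted p = 0.067) were no longer called, and Fzd2 was (0.14, adjusted p = 0.042, within a range of 0.042 to 0.83). Of all members Fzd3 moved furthest on the log2 scale, by -0.19 to 1.02, and stayed called, as did Fzd6 at 0.80, Wnt2b at 1.41 and Wnt9a at -0.97.

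**Figure D4:**
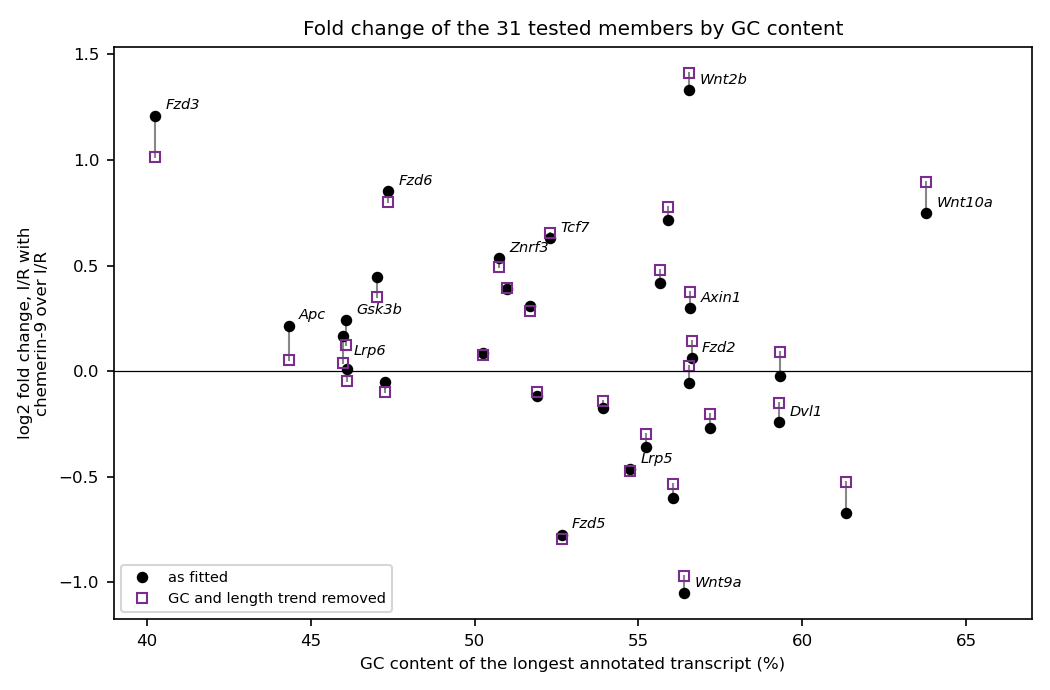
Log2 fold change of the 31 tested members, I/R with chemerin-9 over I/R (y axis), against the GC content of the longest annotated transcript in percent (x axis), as fitted (filled) and after removal of the trend on GC content and length (open). Fzd3, at 40.3% GC, and Apc, Gsk3b and Lrp6, at 44.3% to 46.1% GC, move furthest toward lower values; Fzd3 is then at 1.02, while Apc and Lrp6 lie near 0, at 0.05 and 0.04.

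The rest of the pathway was described with a list of 133 other genes, of which 104 had a row and 91 were tested. In I/R with chemerin-9, 25 rose and 19 fell, 48.4% of those tested, against 51.7% of all genes, with a median log2 fold change of 0.01. Of the 2 tested genes that lipidate and export Wnt proteins, the carrier Wls rose (log2 fold change 0.35, adjusted p = 4.3e-06, edgeR) and the acyltransferase Porcn had a log2 fold change of 0.20 (adjusted p = 0.15). Lgr4, the R-spondin receptor and the only tested gene of its sub-list, was at -0.07 (adjusted p = 0.57, edgeR). Of the 3 tested alternative receptors, Ryk rose by 0.14 (adjusted p = 0.0084, edgeR), although not without chemerin-9 replicate 1 (adjusted p = 0.054), and Ptk7 and Ror2 were both at -0.05 (0.39 and 0.73). Of 6 tested extracellular modulators, Kremen1, a Dickkopf receptor, fell by 0.20 (adjusted p = 0.0090, edgeR), while Tpbg was at -0.18 (0.091) and Apcdd1 at 0.10 (0.64).

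In the cytoplasm, 7 of 22 tested regulators rose and 5 fell, together 54.5%, beside 51.7% of all tested genes. The deubiquitinase Usp34, which acts on Axin, rose by 0.39 on the log2 scale (adjusted p = 4.5e-06, edgeR). The casein kinases moved apart, with Csnk1a1, the priming kinase of β-catenin, at 0.27 (adjusted p = 7.5e-06, edgeR) and Csnk1g2, a kinase of Lrp6, at -0.42 (adjusted p = 6.2e-06). Of 20 nuclear partners, 3 rose and 5 fell, together 40%, beside the same 51.7%. Tle5 was at -0.36 (adjusted p = 1.5e-04, edgeR) and the chromatin ATPase Ruvbl1 at 0.23 (7.9e-04). Chd8, a negative regulator of β-catenin, was at -0.18 (adjusted p = 8.7e-04, edgeR). In the polarity and calcium arms, 9 of 22 rose and 5 fell, together 63.6%, again beside 51.7%. The polarity scaffold Scrib was at -0.55 (adjusted p = 1.0e-08, edgeR), the small GTPase Rhoa at -0.44 (1.6e-06) and protein kinase C alpha (Prkca) at 0.47 (5.7e-06). The largest rises of the whole list, named after their values were seen, were those of 2 scarce genes of the polarity arm. Prickle2, a core polarity protein, had 4.71, 3.83 and 3.92 CPM in I/R with chemerin-9, against 2.19, 2.01 and 1.52 CPM in I/R, a log2 fold change of 1.13 (adjusted p = 7.3e-04, edgeR). Daam2, a formin that binds Dishevelled, had 2.00, 2.06 and 2.52 CPM in I/R with chemerin-9, against 1.49, 0.892 and 0.971 CPM in I/R, a log2 fold change of 0.99 (adjusted p = 0.013, edgeR). Neither overlapped between groups, and Daam2 was not called without chemerin-9 replicate 3 (adjusted p = 0.065) or I/R replicate 2 (0.053), within a range of 0.0092 to 0.065.

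Of 15 tested genes that textbooks list as targets of β-catenin, 4 rose and 3 fell. Ccn4, a secreted matricellular protein first described as induced by Wnt1, averaged 149 ± 2.75 CPM in I/R with chemerin-9 and 81.5 ± 5.54 CPM in I/R (SD, n = 3 each), a log2 fold change of 0.87 with a standard error of 0.05 (adjusted p = 3.0e-09, edgeR). Ccnd1, the G1 cyclin, averaged 59.6 ± 3.95 CPM in I/R with chemerin-9 and 33.5 ± 2.83 CPM in I/R, a log2 fold change of 0.83 with a standard error of 0.07 (adjusted p = 2.4e-07, edgeR). Met, the receptor of hepatocyte growth factor, rose by 0.28 (adjusted p = 2.4e-05, edgeR). Together these are 46.7% of the 15, near the 51.7% of all tested genes. Most of these genes respond to other pathways as well.

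**Figure D5:**
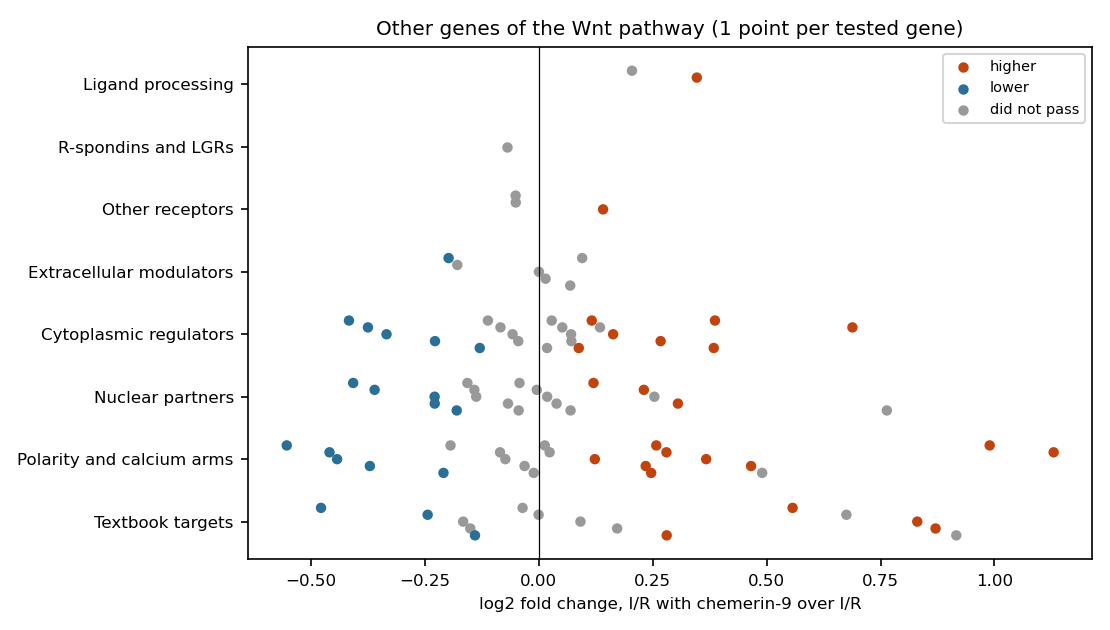
Log2 fold change of the 91 other tested pathway genes, I/R with chemerin-9 over I/R (x axis), by sub-list (y axis); coloured points had an adjusted p under 0.05 in edgeR and grey points did not. Most lie within 0.5 of 0, and of the coloured points Prickle2 and Daam2 in the polarity arm lie farthest to the right, at 1.13 and 0.99, followed by Ccn4 and Ccnd1 at 0.87 and 0.83.

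In the authors' deposited table, 19 of the 35 members had an FDR under 0.05, 13 with a positive and 6 with a negative log2 fold change. Of all 25189 rows, 23.9% did. The 2 shares have unlike bases: 31 of the 35 members passed the filter on low counts used here, but only 14184 of all rows. Axin2 was among the 19 members. Ctnnb1, Fzd7, Wnt10a and Wnt10b, which the edgeR fit called, were not, with FDR values in the authors' deposited table of 0.079, 0.094, 0.12 and 0.15.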

How the data were processed

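RNA-seq libraries were made with a stranded mRNA kit, per the labels' protocols, and the submitters' processing notes name HISAT2, HTSeq, DESeq 1.18.1 and mm10. The sources used here do not give the strand setting or the annotation release. The authors deposited raw counts per gene symbol, and beside them their own log2 fold change, p-value and FDR, used here only where named. Of 25216 rows, 27 repeats were removed, leaving 25189 symbols. Genes with no row are not analysed here. The table's coordinates matched GRCm38 (97.5% had the same start in GENCODE M21).

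The members and lists were chosen with earlier results of these data known. Groups and replicate numbers came from the sample titles. The treatment field reads C9, C10 and C11 in the 3 treated samples, whose titles all read C9. The labels name the treated columns S for a table not used here, and the columns IC were taken to stand for I/R plus C9, which no label states.

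Counts were fitted with edgeR 4.0.16 (R 4.3.3): TMM size factors, filterByExpr by group, a quasi-likelihood test with group as its only term, and Benjamini-Hochberg adjusted p-values over 14184 tested genes, called under 0.05. CPM are counts scaled by TMM-adjusted library size, divided by the union of GENCODE M21 exons for CPM per kb. The standard error is the size of the log2 fold change over the square root of F. The biological coefficient of variation was 5.18%. Full values were given for every called member and the most abundant of each role, other members by their fold change or counts, and of other pathway genes up to 3 per sub-list with the smallest adjusted p. In a BLAST 2.17.0 search (identity from 95%, covering 50% or more of the shorter transcript), near-identical transcripts were found for Apc, Ctnnb1, Dvl2, Wnt11 and Wnt4 only, all of them short RNAs, pseudogenes or transcripts that overlap the gene. The fit was tested on simulated data. Alternatives were other size factors (RLE, upper quartile), DESeq2 1.42.0, limma-voom (limma 3.58.1), a robust prior, other filters, a threshold of 0.1, a replicate block, the GC and length trend removed, and each library left out.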

Additional observations from a re-analysis of the deposited data

How the results depend on the processing

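Of the 22 called members, 16 were called in the same direction under each of the 17 alternatives; the exceptions were Ctnnb1, Wnt10a, Wnt10b, Fzd7, Apc and Lrp6. Members that rose numbered 12 to 14 and members that fell 6 to 9 over all alternatives. With each library left out in turn they numbered 12 to 14 and 6 to 7, other pathway genes 22 to 28 and 14 to 18, and all genes 3179 to 3632 and 3220 to 3691. DESeq2 called 12 members higher and 6 lower, without Ctnnb1 (adjusted p = 0.060), Fzd7 (0.075), Wnt10a (0.082) and Wnt10b (0.13). Deviations from the group mean had correlations of 0.10, -0.05 and 0.04 between samples with the same replicate number. Between samples with different numbers they ran from -0.14 to 0.11. These values gave no sign of pairing, but a weak effect shared by such samples could be missed in so few libraries. With the replicate block 13 members rose and 7 fell.

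Among the genes named, changes of sign occurred only in those that passed under no alternative, and the cause was not tested. After removal of the GC and length trend, alone and together with the replicate block, the log2 fold change was -0.048 and -0.055 for Lef1, 0.091 and 0.089 for Tcf7l1, 0.024 and 0.041 for Wnt11, -0.021 and -0.022 for Apcdd1, 0.046 and 0.047 for Ptk7, and 0.051 and 0.053 for Ror2. With limma-voom Lef1 was at -0.0041. With each library left out in turn, values ran from -0.077 to 0.13 for Lef1, -0.11 to 0.033 for Tcf7l1, -0.10 to 0.019 for Tcf7l2, -0.26 to 0.22 for Wnt11, -0.026 to 0.23 for Apcdd1 and -0.13 to 0.0020 for Ror2. Axin2, Fzd8, Fzd9, Sfrp4, Wnt5b and most libraries of Wnt11 had under 20 counts a library, so that differences in them are less precise. The same holds for the I/R libraries of Wnt2b, with 14, 17 and 15 counts, and of Daam2, with 19, 12 and 16. Wnt6, Wnt10a and Rnf43 were under 20 counts in part of their libraries.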
